A study of Mus musculus with 2 samples.

Results

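The genes encoding voltage-gated sodium and calcium channels and potassium channels were examined for their transcription in mouse myoblasts. Members were taken from the activity table by symbol: those beginning with Kcn and a letter, with Scn and a digit, or with Cacna, Cacnb or Cacng, leaving out Cacna1s, Kcnq1 and Kcnq1ot1. This gave 183 of the 24165 RefSeq entries of the table, and 132 of its 20128 gene symbols. They comprise 91 potassium, 14 sodium and 25 calcium channel genes and 2 transcripts annotated on the opposite strand of a channel gene, Kcnd3os and Kcnmb4os1, which code for no channel.

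GRO-seq was performed on 2 replicate libraries of C2C12 cells, an established line of mouse myoblasts that can fuse into muscle fibres, grown untreated to 80% confluency. There is a single group, with no treatment, genotype or time point to compare. In GRO-seq, engaged polymerases run on in isolated nuclei with bromouridine, and the labelled RNA is captured and sequenced. Reads thus report engaged polymerases, above a background that the authors took from gene deserts. Gene activity is the density of sense-strand reads in the gene body, per kilobase of mappable sequence and scaled to the number of reads (RPKmM). The word Inactive stands where the authors found no density significantly above that of gene deserts. An inactive gene can therefore have reads, and its density is not given. The study calls the libraries biological replicates, and the labels do not say whether they came from separate cultures. The authors pooled both into a single value, so no value below has a standard deviation or a test between replicates, and every comparison is of genes within the same pooled sample. The study states a read total for the pooled data, but the table holds no reads per gene, so no counting interval is given for single values. Values are rounded to 2 decimals, so a gene listed at 0 is active with a value below the rounding step.

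Voltage-gated channels open when the membrane depolarises: sodium channels carry the upstroke of the action potential, calcium channels let calcium in, and potassium channels bring the membrane back to rest. Each channel has a pore-forming subunit, and many have auxiliary subunits that set their gating and their transport to the surface. Myoblasts are not yet contractile, and excitability of skeletal muscle is known to develop after fusion, when the adult sodium channel Scn4a and the calcium channel complex of the transverse tubules appear. Many other members of these families are known from neurons, where they shape firing and transmitter release.

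The labelled cell type was checked first. All 6 myoblast markers were active, from Myod1 at 2.39 RPKmM to Vim at 146.13. All 7 markers of differentiated muscle were active as well, among them Acta1 at 6.85, Myh3 at 5.28 and Myog at 2.39, while Ckm was at 0.2 and Casq1 at 0.09. Of 8 neuron markers, Rbfox3, Snap25, Elavl4, Gad1 and Slc17a7 were inactive, Syt1 was at 0.01, Syp at 0.11 and the neurofilament gene Nefl at 8.43. Of the 4 cardiac markers in the table, Nkx2-5, Myl7 and Ryr2 were inactive and Myh6 was at 0.03. Of 4 fibroblast markers, Lum was inactive, Dcn was at 0.11, Pdgfra at 0.38 and Col1a1 at 9.29. Reads from a few cells that had begun to differentiate and low transcription in all cells cannot be told apart in such a population.

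Most channel genes were listed as inactive or had a low activity. Of the 183 entries, 79 (43.2%) were active, against 70.2% of all entries in the table. By gene symbol, 56 of 132 (42.4%) had at least 1 active entry, against 68.7% of all symbols, and 54 (40.9%) had every entry active, against 68.2%. Taking the highest entry as the level of a gene, the active channel genes had a median activity of 0.055 RPKmM (quartiles 0.01 and 0.2375), and all active symbols one of 0.87 (quartiles 0.22 and 2). A level of 0.1 or above was reached by 20 channel genes (15.2%), against 55.7% of all symbols, and a level of 1 or above by 5 (3.79%), against 31.6%. At the coarse low end of the scale, 15 genes were listed at 0.01 and 3 at 0. In all, 49 of the 56 active channel genes lay below the median of all active symbols and 7 above it.

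**Figure D1:**
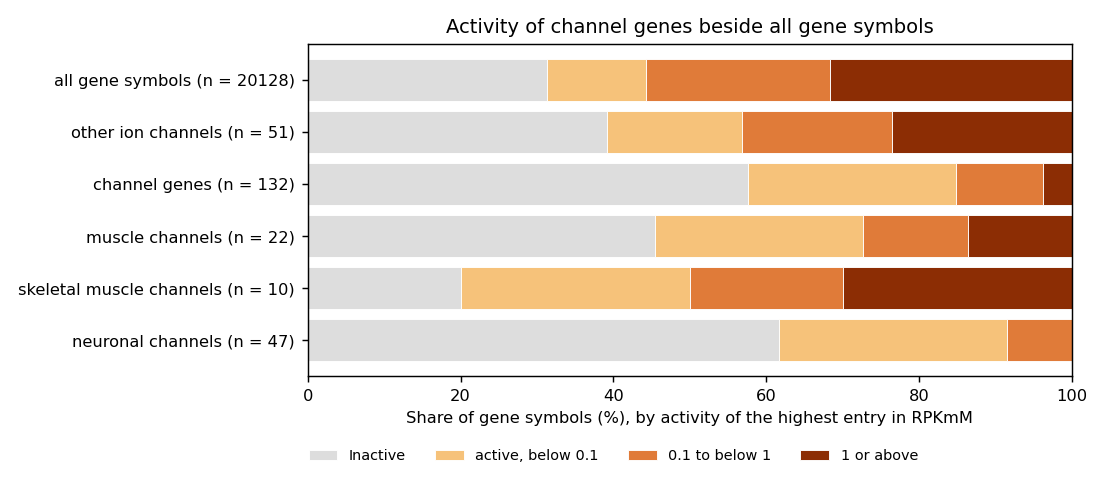
Share of gene symbols (%) that were inactive, active below 0.1, from 0.1 to below 1, or at 1 RPKmM or above by their highest entry, in all symbols, other ion channel genes, the channel genes described here and their muscle, skeletal muscle and neuronal lists, each as 1 stacked bar with its number of genes. Inactive genes form 76 of the 132 channel genes, and no neuronal gene reached 1 RPKmM.

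The 7 genes above the median of active symbols were Kcnn4, Cacna2d1, Cacng1, Cacnb3, Kcnj2, Cacnb1 and Kcnf1. Kcnn4 (NM_001163510), the calcium-activated potassium channel of intermediate conductance known from lymphocytes and other dividing cells, was the highest at 3.62 RPKmM, above 88.0% of all active symbols. Cacna2d1 (NM_001110843), the alpha2delta subunit of the skeletal muscle calcium channel, followed at 2.35, above 79.2%. Cacng1 (NM_007582), the gamma subunit of the same complex, had 1.74, above 70.8%. The level of Kcnn4 was 1.54 times that of Cacna2d1, and rounding alone allows 1.54 to 1.55. The calcium channel beta subunit Cacnb3 had 1.23, and Kcnj2 (NM_008425), the inward rectifier Kir2.1, which hyperpolarises myoblasts before they fuse, had 1.22. Cacnb1, the beta subunit of the skeletal muscle channel, had 0.91. Kcnf1 (NM_201531), a subunit that forms no channel alone and modifies other Kv channels, had 0.9. The 5 highest genes together held 57.9% of the summed activity of all members, which was 17.55 RPKmM.

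**Figure D2:**
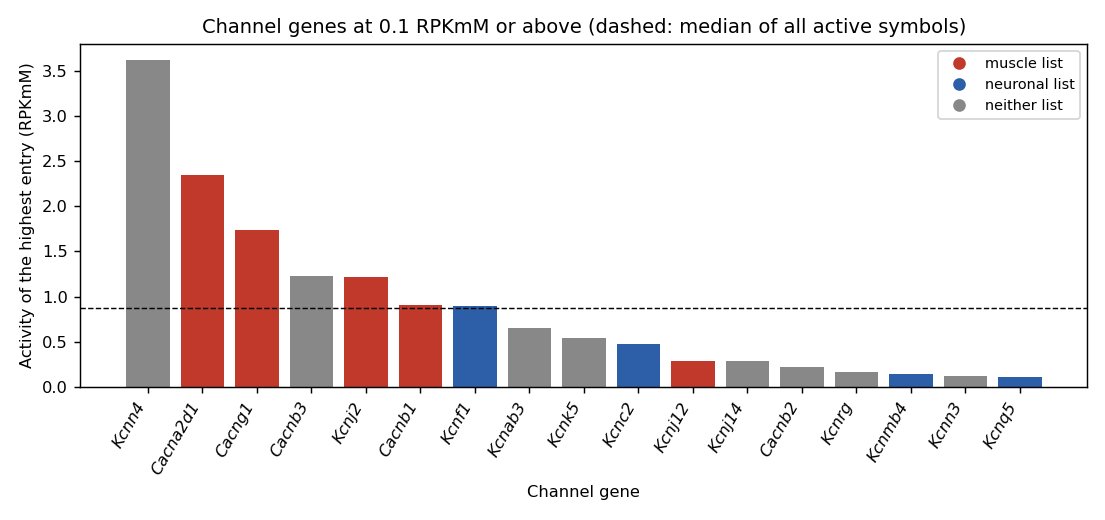
Activity (RPKmM, linear scale, highest RefSeq entry) of 17 of the 20 channel genes at 0.1 or above, as bars coloured by the muscle list, the neuronal list or neither, with the median of all active symbols (0.87) as a dashed line. Values fall from 3.62 for Kcnn4 to 0.11 for Kcnq5, and 7 bars rise above the line.

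Promoter sequences are shown for 3 of the most active members and 3 inactive ones, so that their composition can be read beside the activity. They are the RefSeq promoters, windows of 300 bases across the start that RefSeq gives, of which most lies before it, located by exact match in the mm9 sequence. The start of the GENCODE span used for gene lengths lies inside the window for 4 of them. The window of Kcnd2 ends 0.108 kb before that start, and the window of Kcnma1 lies 201 kb before it, so RefSeq and GENCODE place these starts differently. Kcnn4 lies at chr7:25155032-25155331, Cacna2d1 at chr5:15440259-15440558 and Kcnj2 at chr11:110927228-110927527, all on the plus strand. Of the inactive genes, Kcnma1 lies at chr14:24823378-24823677 on the minus strand, Kcnd2 at chr6:21165096-21165395 on the plus strand and Scn1a at chr2:66278845-66279144 on the minus strand. Each is written in the direction of transcription, with every CG pair in capitals.
Kcnn4: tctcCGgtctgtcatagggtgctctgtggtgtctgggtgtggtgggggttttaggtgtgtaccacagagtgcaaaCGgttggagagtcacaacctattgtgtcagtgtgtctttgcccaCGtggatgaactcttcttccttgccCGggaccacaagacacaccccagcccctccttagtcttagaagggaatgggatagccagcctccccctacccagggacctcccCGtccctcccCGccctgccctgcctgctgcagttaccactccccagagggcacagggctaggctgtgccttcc
Cacna2d1: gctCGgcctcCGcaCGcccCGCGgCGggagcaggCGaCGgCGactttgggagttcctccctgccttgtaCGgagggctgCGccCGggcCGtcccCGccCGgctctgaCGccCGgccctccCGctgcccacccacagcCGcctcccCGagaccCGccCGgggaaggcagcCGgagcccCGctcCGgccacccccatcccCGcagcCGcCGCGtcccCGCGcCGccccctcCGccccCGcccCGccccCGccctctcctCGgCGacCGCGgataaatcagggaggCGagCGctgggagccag
Kcnj2: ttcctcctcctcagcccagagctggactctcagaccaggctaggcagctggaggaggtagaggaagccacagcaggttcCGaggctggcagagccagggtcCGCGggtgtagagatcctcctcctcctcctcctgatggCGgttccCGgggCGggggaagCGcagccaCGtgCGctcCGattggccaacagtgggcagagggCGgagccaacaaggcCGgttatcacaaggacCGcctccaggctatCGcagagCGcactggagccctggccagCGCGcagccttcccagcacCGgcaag
Kcnma1: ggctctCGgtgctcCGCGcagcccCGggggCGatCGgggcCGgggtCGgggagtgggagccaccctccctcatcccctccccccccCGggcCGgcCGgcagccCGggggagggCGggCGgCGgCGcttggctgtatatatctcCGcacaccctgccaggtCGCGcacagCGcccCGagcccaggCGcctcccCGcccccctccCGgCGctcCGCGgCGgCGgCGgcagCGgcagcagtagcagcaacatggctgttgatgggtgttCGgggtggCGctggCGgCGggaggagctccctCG
Kcnd2: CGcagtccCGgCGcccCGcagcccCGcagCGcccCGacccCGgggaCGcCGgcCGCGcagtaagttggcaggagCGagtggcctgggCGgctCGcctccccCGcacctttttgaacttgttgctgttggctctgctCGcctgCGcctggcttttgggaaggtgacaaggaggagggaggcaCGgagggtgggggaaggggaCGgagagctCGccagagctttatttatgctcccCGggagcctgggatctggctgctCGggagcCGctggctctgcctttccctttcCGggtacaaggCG
Scn1a: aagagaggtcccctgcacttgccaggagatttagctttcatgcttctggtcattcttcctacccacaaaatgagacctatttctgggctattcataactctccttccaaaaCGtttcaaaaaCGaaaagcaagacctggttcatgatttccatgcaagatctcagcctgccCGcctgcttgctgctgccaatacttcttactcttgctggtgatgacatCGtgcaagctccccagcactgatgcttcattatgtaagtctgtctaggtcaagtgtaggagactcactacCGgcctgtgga
The promoter of Kcnn4, the most active member, holds 6 CG pairs, and 73.6% of the 18708 promoters of genes in the table hold as many or more. That of Cacna2d1 holds 42 (4.30% hold as many), and that of Kcnj2 holds 18 (44.1%). Among the inactive genes, Kcnma1 has 36 CG pairs (9.02%), Kcnd2 has 26 (25.0%) and Scn1a has 5 (77.7%). Both sets therefore include CG-rich and CG-poor promoters, where the median of all promoters is 15. The motif CAGCTG, an E-box of the type bound by MyoD and the same on both strands, occurs once in that of Kcnj2 and in none of the other 5, and 16.8% of all promoters hold it. The GC box GGGCGG, or CCGCCC on the other strand, with overlapping matches counted, occurs 7 times in Cacna2d1, 3 times in Kcnma1, 2 times in Kcnj2, once each in Kcnn4 and Kcnd2 and not in Scn1a, and 50.4% of all promoters hold it. These matches are descriptions of the letters only. Promoters were held for 96 of the 132 members (72.7%), too few for a comparison of all members, which was not made.

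In the calcium channel family, the highest levels were those of 4 auxiliary subunits, and no pore counted here exceeded 0.07 RPKmM. Of the 9 genes for alpha1 pores, 6 were inactive, namely Cacna1c, Cacna1d, Cacna1e, Cacna1f, Cacna1h and Cacna1i. The other three were low: Cacna1b, the presynaptic N-type pore, had 0.07 RPKmM, the P/Q-type pore Cacna1a had 0.01, and the T-type pore Cacna1g was listed at 0. The skeletal muscle pore, Cacna1s, is outside the members by the rule and is not counted here. Among the 4 alpha2delta genes, Cacna2d1 had 2.35 and Cacna2d2, Cacna2d3 and Cacna2d4 were inactive. The level of Cacna2d1 was 33.6 times that of Cacna1b, the most active pore counted, with 31.3 to 36.2 allowed by rounding. All 4 genes for beta subunits, which bind the pore inside the cell, were active. Cacnb3 and Cacnb1 were the higher ones, Cacnb2, known as the cardiac beta subunit, had 0.22, and Cacnb4, known from cerebellum, was listed at 0. Among the 8 gamma genes, Cacng1 had 1.74 and was 19.3 times as high as the next, Cacng8, at 0.09. Cacng6, a gamma subunit also known from skeletal muscle, had 0.03, while Cacng4 and Cacng7 had 0.01. Cacng8, Cacng4 and Cacng7, like the inactive Cacng2, Cacng3 and Cacng5, are known in neurons, several of them as partners of AMPA receptors.

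**Figure D3:**
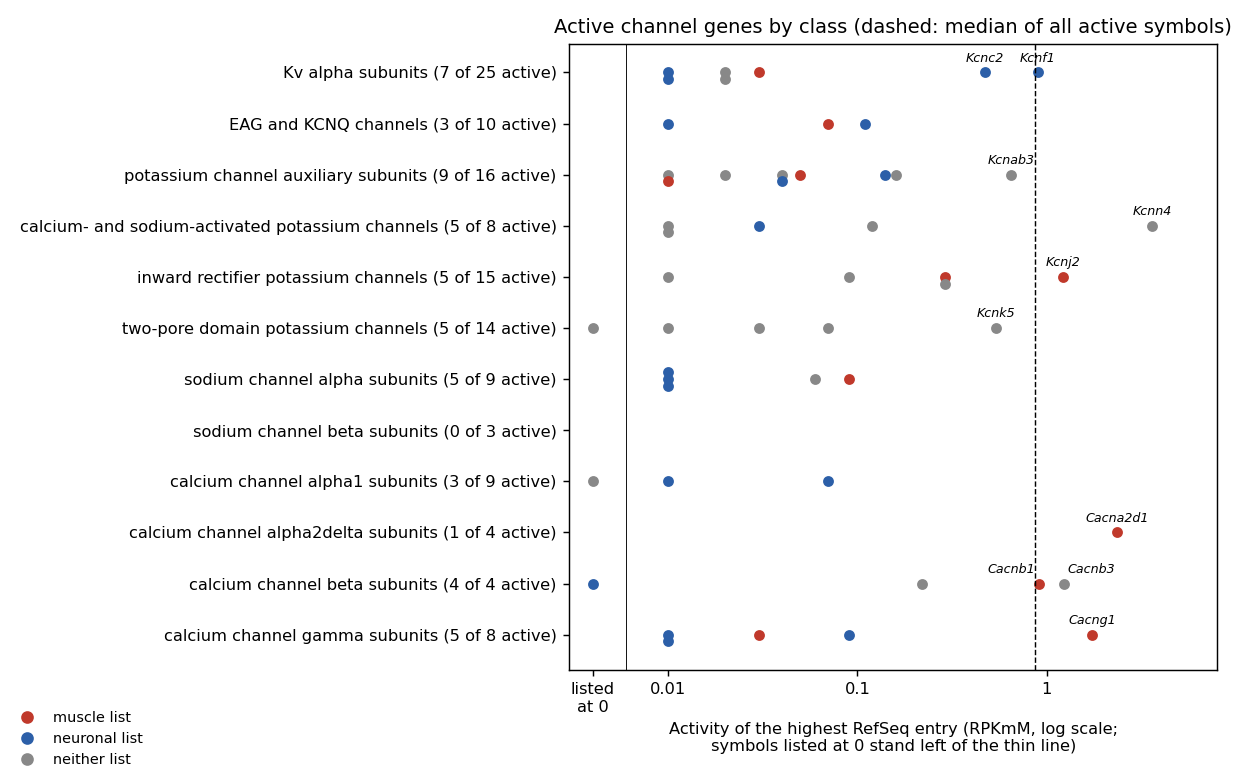
Activity (RPKmM, log scale, highest RefSeq entry) of 52 of the 56 active channel genes by class, 1 point per gene, coloured by list, with the number active of the genes of each class that are reported here at the left and the median of all active symbols (0.87) dashed. Genes listed at 0 stand left of the thin line. The alpha1 pores reach 0.07, and Cacna2d1, Cacnb1, Cacnb3 and Cacng1 lie above the dashed line.

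Sodium channel pores had low levels among those reported here. Scn4a (NM_133199), the pore of adult skeletal muscle, had 0.09 RPKmM. Scn7a, an atypical sodium-sensing member, had 0.06. The neuronal pores Scn2a1, Scn9a and Scn10a had 0.01 each, and Scn1a, Scn3a, Scn8a and Scn11a were inactive. Scn2b and Scn3b, beta subunits known from neurons, were inactive.

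Voltage-gated potassium channel pores of the Kv groups, which repolarise excitable cells, were the largest class and among the least active, with 8 of 26 genes active. Kcnf1 had 0.9 and Kcnc2 (NM_001025581), the Kv3.2 pore of fast-firing interneurons, had 0.47. Kcna7, known from skeletal muscle and heart, had 0.03, Kcna4 and Kcnd1 had 0.02, and Kcnc1 and Kcns2 had 0.01. Inactive genes included Kcna5 of the heart, Kcnd2 and Kcnd3 of the transient outward current, and all of Kcng1, Kcng2, Kcng3 and Kcng4. Of the 12 genes of the EAG and KCNQ groups, 4 were active. Kcnq5, whose channel is known in brain and muscle, had 0.11. Kcnh2, the hERG channel of cardiac repolarisation, had 0.07 and Kcnh7 had 0.01. Kcnq3, a gene of the neuronal M-current, was inactive.

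Among the 8 genes for potassium channels gated by calcium or sodium, 5 were active. Kcnn4 stood 30.2 times above Kcnn3 at 0.12, a small-conductance channel, with 28.9 to 31.5 allowed by rounding. Kcnn1 had 0.03, Kcnt2 and Kcnu1 had 0.01, and Kcnma1, the pore of the large-conductance BK channel, was inactive together with Kcnn2 and Kcnt1. Among the genes for BK beta subunits, Kcnmb4 had 0.14, Kcnmb2 had 0.02 and Kcnmb1 had 0.01. Inward rectifiers, which hold the resting potential, had 5 active genes of 15. Kcnj2 was 4.21 times as high as its relative Kcnj12 (Kir2.2) at 0.29, with 4.12 to 4.30 allowed by rounding. Kcnj14 (Kir2.4) also had 0.29, Kcnj16 had 0.09 and Kcnj4 (Kir2.3) 0.01. All 4 genes of the Kir2 group were thus active, where 68.7% of all symbols were, and 4 genes are too few to set against that share. Both pores of ATP-sensitive channels, Kcnj8 and Kcnj11, were inactive, as were the G-protein-gated Kcnj3, Kcnj5, Kcnj6 and Kcnj9.

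The K2P channels, which carry background potassium current, had 5 active genes of 14. Kcnk5 (NM_021542), the acid-sensitive TASK-2, had 0.54 and was 7.71 times as high as the next, Kcnk12, at 0.07. Kcnk2 (TREK-1) had 0.03, Kcnk6 had 0.01 and Kcnk13 was listed at 0. Kcnk1, Kcnk3 and Kcnk9 were among the 9 inactive genes. Of the 16 genes for auxiliary potassium channel proteins, 9 were active. Kcnab3 (NM_010599), a cytoplasmic beta subunit of Kv channels, had 0.65, and its relatives Kcnab2 and Kcnab1 had 0.04 and 0.01. Kcnrg, a regulator that holds back Kv assembly, had 0.16. The KChIP genes Kcnip2 and Kcnip3 had 0.05 and 0.04, Kcnip1 and Kcnip4 were inactive, and none of Kcne1, Kcne2, Kcne3 and Kcne4 was active. Over all families, 20 of 36 genes for auxiliary subunits (55.6%) and 36 of 94 for pore-forming or silent subunits (38.3%) were active, with medians of 0.07 and 0.045 among the active ones. In 11 of the 12 classes the share of active genes lay below the 68.7% of all symbols, and the exception was the class of calcium channel beta subunits.

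Muscle and neuronal channels were then compared over gene lists drawn up from what the channels are known for. Of 22 genes known from skeletal, cardiac or smooth muscle, 12 (54.5%) were active, with a median of 0.19 RPKmM (quartiles 0.045 and 0.9875). Of 47 genes known from neurons, 18 (38.3%) were active, with a median of 0.01 (quartiles 0.01 and 0.085). Both shares lay below the 68.7% of all symbols and both medians below 0.87. A level of 0.1 or above was reached by 27.3% of the muscle and 8.51% of the neuronal genes, against 55.7% of all symbols. The ratio of medians was 19, a value that rests on the rounding step in its denominator, and it was 6.01 for geometric means with a pseudocount of 0.01. Each muscle gene was also set against each neuronal gene, with inactive genes placed lowest. The muscle gene was higher in 49.4% of the 1034 pairs, the neuronal gene in 21.3%, and 29.3% were tied. No density is given for inactive genes, so placing them lowest is a choice on which these shares rest. The lists overlapped widely, as 10 muscle genes were inactive and Kcnf1 and Kcnc2 lay above the muscle median. Some channels are known from both tissues: Cacnb2 stands in neither list and Kcnq5 in the neuronal one. With both in the muscle list, the shares were 58.3% and 37% and the medians 0.165 and 0.01. The lists were drawn up with some of these values known and genes are not replicates, so the difference was not tested and is a description only.

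Within the muscle list, the skeletal genes had the larger share of active genes and the higher median. Of the 10 genes best known there, 8 (80%) were active, with a median of 0.6, beside 68.7% and 0.87 over all symbols, and Kcnj11 and Kcne3 were the inactive ones. With 10 genes, this share is near that of all symbols. The active genes were Cacna2d1, Cacng1, Kcnj2, Cacnb1, Kcnj12, Scn4a, Cacng6 and Kcna7, from 2.35 down to 0.03. Of the 12 genes better known from heart or smooth muscle, or from several kinds of muscle, 4 (33.3%) were active, with a median of 0.06. These included Kcnh2, Kcnip2 and Kcnmb1, the BK subunit of smooth muscle. The inactive ones were Cacna1c, Cacna1h, Scn4b, Kcna5, Kcnd3, Kcne1, Kcnj8 and Kcnma1. The 3 muscle genes at 1 RPKmM or above, Cacna2d1, Cacng1 and Kcnj2, all stand in the skeletal list. Genes of that list need not be limited to skeletal muscle, as with Kcna7, which is known from heart too. The split was made with some values known, so the difference is a description only.

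In the neuronal list, 14 of the 18 active genes were below 0.1, as were 2612 of the 13822 active symbols. Of the 18, 10 were at 0.01 or 0. The 4 at 0.1 or above were Kcnf1, Kcnc2, Kcnmb4 and Kcnq5, followed by Cacng8, Cacna1b, Kcnip3 and Kcnn1. Of the 7 neuronal sodium pores in the list, none exceeded 0.01. The 63 members in neither list had 26 active genes (41.3%, against 68.7% of all symbols) with a median of 0.06. They include the most active member, Kcnn4.

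Other ion channel genes gave a context outside these families. Of 51 genes for TRP, HCN, chloride, anoctamin, Piezo, Orai and inositol trisphosphate receptor channels, 31 (60.8%) were active, with a median of 0.49, and 12 (23.5%) were at 1 or above, against 5 of 132 here. Over all symbols, 68.7% were active and 31.6% were at 1 or above. The highest were Clcn5, a chloride transporter of endosomes, at 13.5, and Ano6, a lipid scramblase and channel, at 3.88. The mechanically gated Piezo1, known in myoblast fusion, had 2.73. Many of these proteins work in intracellular membranes or in most cell types.

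Several entries of a gene mostly gave similar values. There were 33 symbols with several entries, of which 17 were inactive in every entry, 14 active in every entry and 2 mixed. The mixed genes were Kcns2, at 0.01 in NM_181317 and inactive in NM_001271704, and Cacnb4, at 0 in 3 entries and inactive in NM_001285427. Of the 15 genes with at least 2 active entries, 3 had listed values that differed by over 3 times between the highest and lowest. Kcnj16 had 0.09, 0.04, 0.01 and 0.01, a range of 9 times, for which rounding allows 5.67 to 19. Kcnab2 had 0.04 and 0.01, for which rounding allows 2.33 to 9 times, so that it need not exceed 3. Kcnj12 had 0.29 (NM_010603) and 0.09 (NM_001267593), for which it allows 3 to 3.47 times. Cacnb2 had 0.22 in NM_023116 against 0.1 and 0.09 in its other entries. Entries of Cacnb1 lay between 0.87 and 0.91, those of Cacnb3 at 1.14 and 1.23, and those of Kcnq5 were equal at 0.11. Entries of one gene can overlap and are not replicates.

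**Figure D4:**
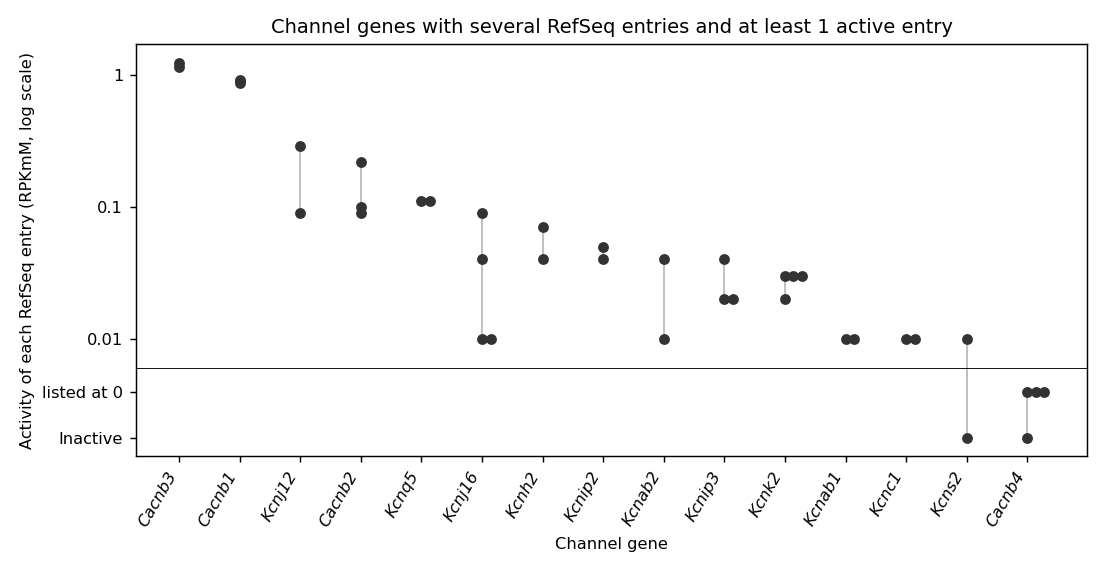
Activity (RPKmM, log scale) of each RefSeq entry of 15 of the 16 channel genes with several entries and at least 1 active entry, 1 point per entry, joined by a line within a gene. Entries listed at 0 or as Inactive stand below the thin line. The points of Kcnj16 span 0.01 to 0.09, and those of Cacnb1 nearly coincide.

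Gene length and neighbouring genes were set beside the calls, with gene spans of the GENCODE vM1 annotation of mm9, found for 130 of the 132 members. Active channel genes had a median span of 52.3 kb and inactive ones 33.5 kb, and over all symbols the medians were 24.1 kb and 14.5 kb. The call rests on read counts, so at the same density it also depends on gene length, and this part was not tested. The share of active channel genes was set against that of all symbols by length, and was 37.8% against 64.8% under 20 kb, 51.1% against 78.0% from 20 to under 100 kb, and 40% against 74.1% from 100 kb. An active gene of the table on the same strand overlapped or ended within 10 kb upstream of 8 of the 56 active members (14.3%) and of 4 of 74 inactive ones (5.41%). Over all symbols with a span, the same held for 19.9% of active and 6.04% of inactive ones, so the shares among channel genes lay near or below those of all symbols. Polymerases that continue past the end of a gene could be counted in such a neighbour, and their part in these values was not tested. Among the 20 members at 0.1 or above, 4 had such a neighbour. Kcnj14 begins 0.48 kb after Grwd1, at 6.27 RPKmM, and Kcnrg 1.54 kb after Trim13, at 0.21. The 7 genes above the median of active symbols had none.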

How the data were processed

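GRO-seq libraries were prepared by the authors from C2C12 myoblasts, labelled as 2 replicates. The submitters' processing notes name CASAVA 1.8, Bowtie2 and mm9. Reads that failed to align were shortened and aligned again, unique ones were kept, those in rRNA and tRNA repeats were dropped, and the libraries were pooled. The authors deposited 1 value per RefSeq entry, the RPKM over mappable bases (RPKmM) of the gene body. Inactive stands where a Poisson comparison found no density significantly above that of gene deserts. Short genes were left out. Because pooling leaves no value per library, no test was made. Reads with no unique position are not counted, and the length is that of mappable bases.

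A gene was taken as active when at least 1 entry was, and its level was that of its highest entry. Members, lists and classes were chosen with earlier results of these data known, and activities of some listed genes had been seen. Named genes are, among those reported, the 15 most active members, the muscle list, the 10 most active neuronal genes, the leading gene of each class, and genes whose entries disagree; other members are named by class. Kcnma1, Kcnd2, Scn1a and 3 of the most active genes were picked for their promoters after values were seen, as were the pairs set in ratio, the length ranges and the check of neighbours. Promoters are from RefSeq (GRCm38.p6) and were placed on mm9 by exact match. Alternatives changed the entry used, the threshold, the treatment of inactive genes and the muscle list. Cacna1s, Kcnq1 and Kcnq1ot1 are outside the rule. Some members are counted in totals, but their own values are not reported here. Counting was tested on simulated data. Python 3.11.15, numpy 2.4.6, pandas 2.3.3, scipy 1.17.1 and matplotlib 3.10.9 were used.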

Additional observations from a re-analysis of the deposited data

How the results depend on the processing

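No paired analysis was possible because both libraries were pooled into a single value, and for the same reason no library could be left out. The difference in shares and the ratio of medians between muscle and neuronal genes kept their direction under every alternative for which they were formed. Direction was not scored for the other values. Against the 68.7% of all symbols, the muscle share did change side, from 54.5% to 80% with the skeletal genes only. Of 61 alternative values, 44 stayed within 1.5 times the value in the report or, for shares, within its 95% exact binomial interval. With a threshold of 0.1 RPKmM, 26 entries in place of 79 counted as active, 27.3% in place of 54.5% of muscle genes and 8.51% in place of 38.3% of neuronal genes. With the skeletal muscle genes only, the muscle share was 80%, the difference in shares 41.7 in place of 16.2 percentage points, the muscle median 0.6 in place of 0.19 and the ratio of medians 60 in place of 19. The lowest active entry gave a muscle median of 0.09 and a ratio of 9. With inactive genes at 0, the medians were 0.02 for muscle and 0 for neuronal genes, so no ratio could be formed. Geometric means with pseudocounts of 0.01 and 0.001 gave 0.0353 and 0.0272 for neuronal genes and ratios of 6.01 and 7.13. Without the 12 members with an active neighbour on the same strand, a choice made after seeing the data, the muscle median was 0.29 and the ratio 29. Moving Cacnb2 and Kcnq5 to the muscle list, also chosen after seeing the data, gave a ratio of 16.5. Of 48 alternative shares by class, 42 stayed within the interval. This interval treats genes as independent, is wide for classes of as few as 4 genes, and the alternatives score the same genes again. The counts of values that stayed are therefore descriptions and do not measure stability. The table holds no reads per gene, and the order of genes listed at the same value of 0.01 or 0 cannot be read.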
